A study of Mus musculus with 2 samples.

Results

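Imprinted genes are genes read mainly from the copy inherited from one parent. A list of 47 mouse imprinted genes was looked up by symbol among the 43346 Ensembl genes of 2 limb libraries, and 46 were found in both; Peg13 was not matched and is not analysed here. The libraries came from total RNA of limb tissue of healthy B6NCrl mouse embryos at embryonic day 12.5, 1 group with no treatment and no mutant. Replicate 1 pooled the limbs of 88 embryos and replicate 2 those of 68, males and females together, and each used 10 ng of RNA of more than 200 nt. The labels number them as biological replicates but do not say whether forelimbs and hindlimbs were mixed in equal parts. The p-values below therefore compare these 2 pools and no conditions.

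At an imprinted domain, a DNA stretch called the imprinting control region carries methylation on the maternal or on the paternal copy, laid down in the egg or the sperm and kept through development. The methylated and the bare copy then use different enhancers, insulators or long noncoding RNAs, so that neighbouring genes can be read from opposite copies. In embryos, many paternally expressed genes promote growth and many maternally expressed genes restrain it. Here alleles were not measured: 23 members are called paternally expressed and 23 maternally expressed from general knowledge, and for 14 of the 46, called limited below, imprinted expression is known only in some tissues, such as placenta or brain, or from some transcripts. Reads from a mixed pool of inbred embryos give the sum of both copies. In whole tissue, fewer cells of a type and less RNA per cell also cannot be told apart.

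The libraries held 28832310 and 29249374 estimated counts in Ensembl genes. Limb mesenchyme markers were present, with 10 of 10 at 1 TPM (a transcript level scaled by length and depth) or more in both libraries. None of 8 trophoblast markers reached that level, 3 of them were at 0 in both libraries, and their summed TPM was 0.32 and 0.19. Of 10 brain and neuron markers 4 reached it, with summed TPM of 20.0 and 30.1.

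Most of the 46 listed imprinted genes were expressed in the limb, and several were among its most abundant messages. The list was chosen with earlier results of these data known, so its shares need not hold for imprinted genes in general. At least 1 TPM in both libraries was found for 41 of 46 members (89.1%), against 33.5% of all Ensembl genes and 59.2% of protein-coding genes. At 100 TPM or more stood 14 members (30.4%, against 3.9% of all genes), and the median member had a mean of 34.3 TPM. Members held 1.27% of the counts in replicate 1 (95% exact binomial interval 1.261 to 1.269) and 1.19% in replicate 2 (1.188 to 1.196), intervals that cover counting error only. The level was concentrated in few genes: the 6 highest members held 71.3% and 71.0% of the summed member TPM.

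**Figure D1:**
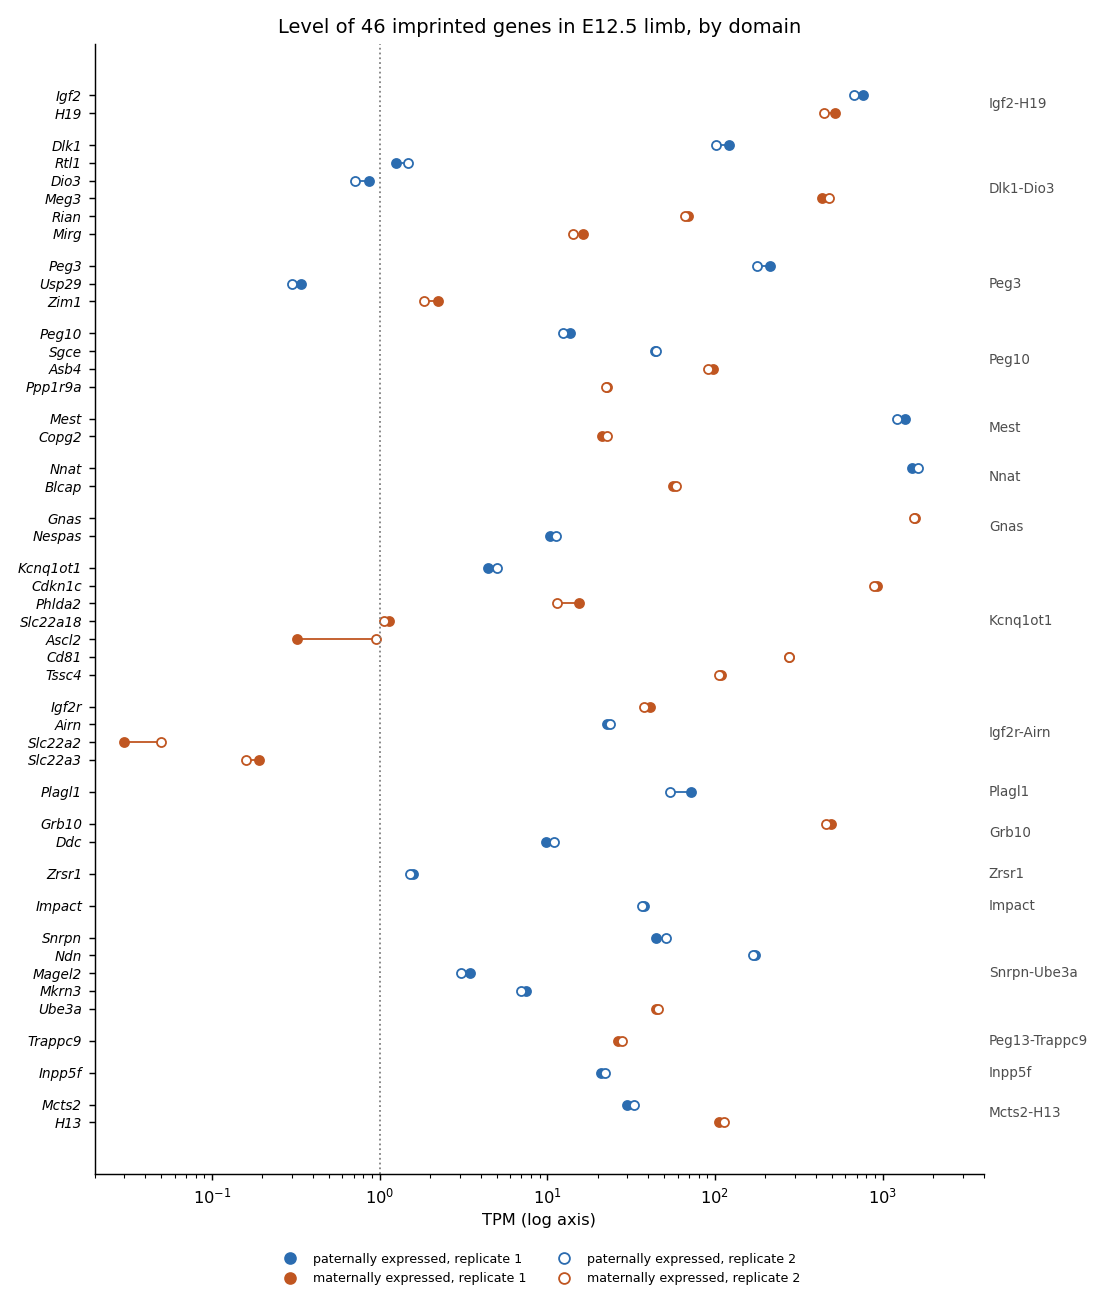
TPM on a log axis for each of the 46 members, grouped by imprinted domain, with filled points for replicate 1, open points for replicate 2, colour for the parental copy expressed, and a dotted line at 1 TPM. Nnat, Gnas and Mest stand above 1000 TPM in both libraries, and Dio3, Ascl2, Usp29, Slc22a3 and Slc22a2 lie below the line in both.

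The Dlk1-Dio3 domain on chromosome 12 combined a wide range of protein-coding levels with abundant noncoding RNA. Its paternally expressed genes were Dlk1, a transmembrane regulator of progenitor cells related to Notch ligands, Rtl1, a gene derived from a retrotransposon, and Dio3, the deiodinase that inactivates thyroid hormone. Dlk1 (chr12:109452823-109463336, plus strand of mm10) was at 122 TPM in replicate 1 and 102 in replicate 2. Rtl1 was at 1.25 and 1.47 TPM and Dio3 at 0.86 and 0.71 TPM, the latter from 24 and 26 counts. Dlk1 thus exceeded Rtl1 97.6-fold and 69.4-fold, and Dio3 142-fold and 144-fold, in the 2 libraries.

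The maternally expressed RNAs of that domain lie one after another on the plus strand and were lower the farther downstream they start. Meg3, a long noncoding RNA, was at 433 and 480 TPM (mean 456 ± 32.9, SD, n = 2), Rian, the host of snoRNAs, at 69.4 and 66.4 TPM, and Mirg, the host of a large microRNA cluster, at 16.4 and 14.2 TPM. Meg3 was 6.72-fold above Rian by mean TPM and Rian 4.44-fold above Mirg, with the same order in both libraries. Between Meg3 and Rian lies Rtl1, on the minus strand, and the microRNAs encoded opposite to it are read from the maternal copy and can pair perfectly with the Rtl1 message.

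The deposited rows for those small RNAs carried almost no counts. All 6 microRNA rows within Rtl1, 4 microRNA and 13 snoRNA rows within Rian were at 0 in both libraries, and of 14 microRNA rows within Mirg 1 held a single count. Nearly all were no longer than the 99 nt that the authors' effective length subtracts, and the RNA was selected above 200 nt, so small RNA was not measured. The mature sequences are shown for what the domain encodes: of 13 mature arms of RefSeq (GRCm38.p6) within the Rtl1 span, 11 lie on the opposite strand, and the reverse complement of all 11 was found in the coding part of the GENCODE M21 Rtl1 transcript. Capitals mark the seed, bases 2 to 8, 5′ to 3′.
miR-431-5p: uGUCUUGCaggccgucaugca
miR-431-3p: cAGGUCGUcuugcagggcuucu
miR-433-5p: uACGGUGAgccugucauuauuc
miR-433-3p: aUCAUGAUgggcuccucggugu
miR-127-5p: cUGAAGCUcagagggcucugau
miR-127-3p: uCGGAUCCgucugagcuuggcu
miR-434-5p: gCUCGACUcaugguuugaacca
miR-434-3p: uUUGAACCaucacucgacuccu
miR-432: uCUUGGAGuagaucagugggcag
miR-136-5p: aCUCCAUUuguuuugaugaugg
miR-136-3p: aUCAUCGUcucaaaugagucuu
No seed was shared among them. Along the Rtl1 transcript their complements begin between base 164 (miR-136-3p) and base 5072 (miR-431-5p). Mirg spans 26 mature arms with 25 seeds, where miR-453 and miR-496a-5p share 1.

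The Igf2-H19 domain on chromosome 7 was among the highest in level from both parental copies. Igf2, the fetal insulin-like growth factor, was at 764 and 678 TPM and H19, a maternally expressed noncoding RNA, at 521 and 448 TPM. Both were lower in replicate 2 and their log2 ratio hardly moved, at 0.55 and 0.60 (mean 0.58 ± 0.03, SD, n = 2). Each gene encodes microRNAs within its span, as does Mest on chromosome 6, and these are shown as small RNAs whose host transcripts were abundant here.
miR-675-3p (H19): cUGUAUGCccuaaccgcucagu
miR-675-5p (H19): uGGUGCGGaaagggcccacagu
miR-483-3p (Igf2): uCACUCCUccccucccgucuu
miR-483-5p (Igf2): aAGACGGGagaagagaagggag
miR-335-5p (Mest): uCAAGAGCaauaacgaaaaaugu
miR-335-3p (Mest): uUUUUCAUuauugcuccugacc
Capitals again mark the seed, and all 6 seeds differ. The 3 hairpin rows had 0 counts in both libraries, at lengths of 73 to 98 nt.

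Maternally expressed genes known to restrain growth ranged from high to low in level. Cdkn1c, an inhibitor of cyclin-dependent kinases, was at 920.3 and 884 TPM. Grb10, an adaptor that dampens insulin and growth factor receptor signalling, was at 493 and 459 TPM, and Igf2r, the receptor that clears IGF2, at 40.8 and 37.6 TPM. Phlda2, a regulator of placental growth, was low at 15.4 and 11.4 TPM. Cdkn1c and Grb10 varied little between libraries, with coefficients of variation of 2.86% and 4.98%, while Phlda2 (20.9%) rested on 190 and 142 counts.

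Cdkn1c belongs to the Kcnq1ot1 domain, whose members spanned a wide range of levels. Kcnq1ot1, the paternally expressed antisense RNA that silences the domain on its own chromosome, was at 4.43 and 5.04 TPM, which for its annotated 84395 nt corresponds to 7001 and 8016 counts. Cdkn1c was 191-fold above it per length by mean TPM, but without scaling by length the log2 ratio of Kcnq1ot1 over Cdkn1c was -2.03 in place of -7.55, since Kcnq1ot1 is so long. Among the other maternally expressed neighbours, Cd81, a tetraspanin, was at 276 and 278 TPM and Tssc4, a nuclear factor linked to splicing, at 109 and 105 TPM. Slc22a18, a transporter, was at 1.14 and 1.06 TPM, 820-fold below Cdkn1c although the gene starts lie 12.7 kb apart. Ascl2, a trophoblast transcription factor, was at 0.32 and 0.95 TPM from 9 and 27 counts.

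In the Igf2r-Airn domain on chromosome 17, Igf2r exceeded Airn, the paternally expressed antisense RNA that crosses its promoter, by 1.69-fold per length; without length scaling the log2 ratio of Airn over Igf2r was -4.10 in place of -0.75. Airn was at 22.9 and 23.5 TPM, over annotated spliced forms of 485 to 1375 nt for the leading transcripts. Reads from unspliced Airn that fall outside annotated exons are not in that value. The neighbours imprinted in placenta were near the floor: Slc22a3, an organic cation transporter, was at 0.19 and 0.16 TPM (12 and 10 counts), and Slc22a2, another, had 1 and 2 counts. The trophoblast markers, as given above, were at or near 0 in the same libraries.

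The Peg3 domain on chromosome 7 was led by its namesake. Peg3, a zinc finger protein, was at 212 and 179 TPM, and Usp29, a deubiquitinase read from the same paternal copy in the opposite direction, at 0.34 and 0.30 TPM (16 and 14 counts). Peg3 was thus 624-fold and 597-fold higher. The Usp29 value rests on 1 quantified transcript of 2610 nt, which starts at position 6961160, far inside the gene, so RNA from the Usp29 starts beside Peg3 is counted only where it covers that stretch. Zim1, the maternally expressed zinc finger gene, was at 2.23 and 1.85 TPM, 95.9-fold below Peg3. The stretch between both starts in RefSeq (GRCm38.p6, chr7:6730420-6730582, plus strand) is shown as the stretch from which the annotated genes run in opposite directions; the quantified Usp29 transcript does not start there. Its 163 bases hold 5 CpG dinucleotides, in capitals.
Peg3-Usp29 interval: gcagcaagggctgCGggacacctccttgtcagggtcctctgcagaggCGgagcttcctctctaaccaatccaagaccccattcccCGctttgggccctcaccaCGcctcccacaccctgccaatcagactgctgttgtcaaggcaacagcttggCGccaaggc
The observed over expected CpG ratio there was 0.34, with 62.0% G and C.

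In the Peg10 domain on chromosome 6, maternally expressed Asb4 was the highest gene. Peg10, a retrotransposon-derived gene needed for the placenta, was at 13.7 and 12.4 TPM, and Sgce, a sarcoglycan of the muscle membrane complex, at 44.1 and 44.3 TPM. Sgce was 3.4-fold higher per length, with GENCODE M21 starts 0.099 kb apart on opposite strands; without length scaling the log2 ratio of Peg10 over Sgce was -0.29 in place of -1.76. Of the maternally expressed genes, Asb4, a substrate adaptor of ubiquitin ligases, was at 97.6 and 91.4 TPM and Ppp1r9a, an actin-binding scaffold also called neurabin, at 22.7 and 22.5 TPM. Asb4 was 7.26-fold above Peg10, its paternal counterpart.

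Paternally expressed genes that lie inside or overlap another gene stood on either side of their partner in level. Nnat, a proteolipid of the endoplasmic reticulum, lies within Blcap, a regulator of apoptosis and proliferation, on the opposite strand. Nnat was at 1497 and 1629 TPM and Blcap at 56.6 and 58.4 TPM. Mest, a member of the hydrolase fold family, was at 1364 and 1212 TPM, and Copg2, a coatomer subunit that overlaps its end, at 21.3 and 22.8 TPM. Mcts2, an intronless copy of Mcts1 inserted in H13, was lower than its host, at 29.7 and 32.9 TPM, against 106 and 113 TPM for H13, a signal peptide peptidase. Mcts1, the copy on the X chromosome, was at 72.0 and 72.5 TPM.

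Zrsr1, likewise an intronless copy, of the splicing factor gene Zrsr2, lies in Commd1 and was at 1.58 and 1.51 TPM, against 76.8 and 71.7 TPM for Zrsr2. Of the 31-base words in GENCODE M21 transcripts of Mcts2, 6.24% also occur in a transcript of another gene on the same strand. For Zrsr1, 8.17% of words occur in reverse complement in other genes, mostly Commd1. For Nespas, 34.8% of words occur so, mostly in Gnas. On the same strand, 28.6% of the words of Snrpn recur, led by a predicted gene of its own locus (Gm38393). For Igf2, 61.9% recur on the same strand in a readthrough gene of the later annotation.

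The Snrpn-Ube3a domain on chromosome 7, known for Prader-Willi and Angelman syndromes in people, was led by Ndn. Ndn, a MAGE family protein of postmitotic cells, was at 172 and 169 TPM, while its relative Magel2 was at 3.45 and 3.06 TPM and Mkrn3, a ring finger protein that holds back puberty, at 7.48 and 6.97 TPM. Snrpn, a spliceosome core protein, was at 44.4 and 51.1 TPM and Ube3a, a ubiquitin ligase that is maternal only in neurons, at 44.4 and 45.8 TPM. Their means of 47.8 ± 4.72 and 45.1 ± 0.969 TPM (SD, n = 2) did not differ beyond the spread. The per-length ratio of Snrpn over Ube3a (log2 0.08 ± 0.11) turned to -1.36 when counts were compared without length.

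The remaining members had intermediate levels. Plagl1, a zinc finger regulator of growth genes, was at 72.4 and 54.1 TPM, Impact, an inhibitor of the GCN2 kinase, at 37.8 and 36.7, Trappc9, a vesicle-tethering subunit, at 26.4 and 28.0, and Inpp5f, an inositol phosphatase, at 21 and 22.0. Ddc, which makes dopamine and serotonin and is paternal in the developing heart, was at 9.87 and 11 TPM, 45.6-fold below Grb10. Plagl1 had the widest spread of any member above 20 TPM, with a coefficient of variation of 20.4% over 2 libraries.

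Across domains, neither the paternally nor the maternally expressed gene of a pair was higher as a rule. Of 12 reciprocal pairs, the paternally expressed gene was higher in both libraries in 5 (Igf2, Peg3, Mest, Nnat and, within its spread of zero, Snrpn) and the maternally expressed gene in 7 (Meg3, Asb4, Gnas, Cdkn1c, Igf2r, Grb10 and H13). Copg2, Blcap, Gnas, Ddc, Ube3a and H13 are of limited imprinting, so both of their copies may be read in limb. Where both genes are of broad imprinting, Igf2 and Peg3 were higher on the paternal side. Meg3, Asb4, Cdkn1c and Igf2r were higher on the maternal side. By mean TPM 8 of 12 differed at least 4-fold. Among 16 pairs of neighbours read from the same copy, 13 differed at least 4-fold. That count includes Igf2r with Slc22a2, for which no fold is given because of its few counts. An exact sign-flip test over 2 libraries cannot go below 0.5, so no p is given for single pairs.

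**Figure D2:**
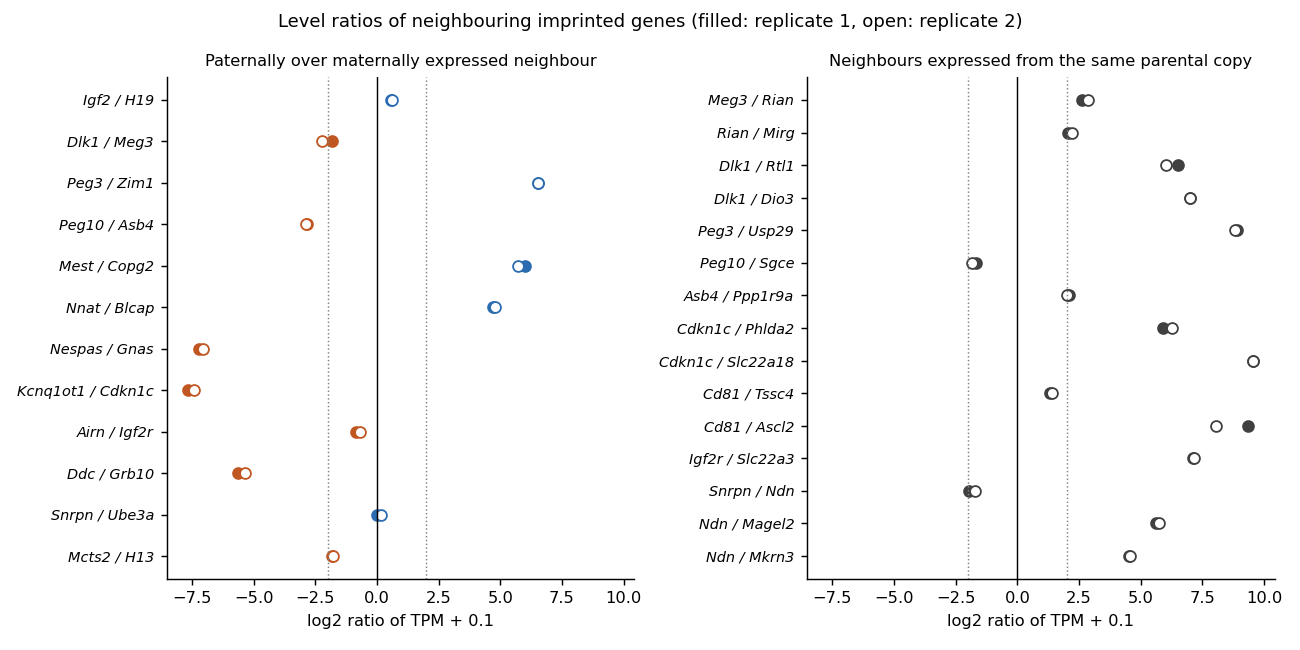
Log2 ratio of TPM + 0.1 for neighbouring members, with filled points for replicate 1 and open points for replicate 2, a line at equal level and dotted lines at a 4-fold difference; Igf2r with Slc22a2 is left out. On the left, paternally over maternally expressed genes run from -7.67 for Kcnq1ot1 over Cdkn1c to 6.52 for Peg3 over Zim1; on the right, pairs from the same copy mostly lie beyond the dotted lines.

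As groups, the 23 maternally expressed members had the higher median. It was 44.4 and 45.8 TPM, against 22.9 and 23.5 TPM for the 23 paternally expressed members, a log2 difference of -0.96 in the direction paternal minus maternal. The summed levels over all members were close, at 4833 and 4700 TPM for maternal and 4456 and 4288 TPM for paternal members. The maternal sum includes Gnas, of limited imprinting, at 1560 and 1530 TPM. Over members of broad imprinting, 11 maternally expressed ones had medians of 69.4 and 66.4 TPM and 21 paternally expressed ones 29.7 and 32.9 TPM. The sums of these broad members went the other way, at 2610 and 2495 TPM for maternal and 4426 and 4255 TPM for paternal ones. Members are not replicates, and no test was made.

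Where one gene has several promoters with different imprints, the deposited transcript levels gave the share assigned to each annotated start. RNA 5′ ends were not measured, so the shares by start given here and below are products of read assignment. Gnas, which encodes the stimulatory G protein subunit, also makes maternal Nesp transcripts and paternal XL and exon 1A transcripts from starts upstream. Starts at chr2:174330006-174330287, those of the G protein form, held 1497 and 1473 TPM (96.0% and 96.3%), and that form is read from both copies in most tissues. The exon 1A group held 24.2 and 23.7 TPM, the Nesp group 22.1 and 17.9 TPM and the XL start 5.60 and 3.88 TPM. Nespas, the paternally expressed antisense of Nesp, was at 10.4 and 11.3 TPM, below Nesp in both libraries and 143-fold below all of Gnas.

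**Figure D3:**
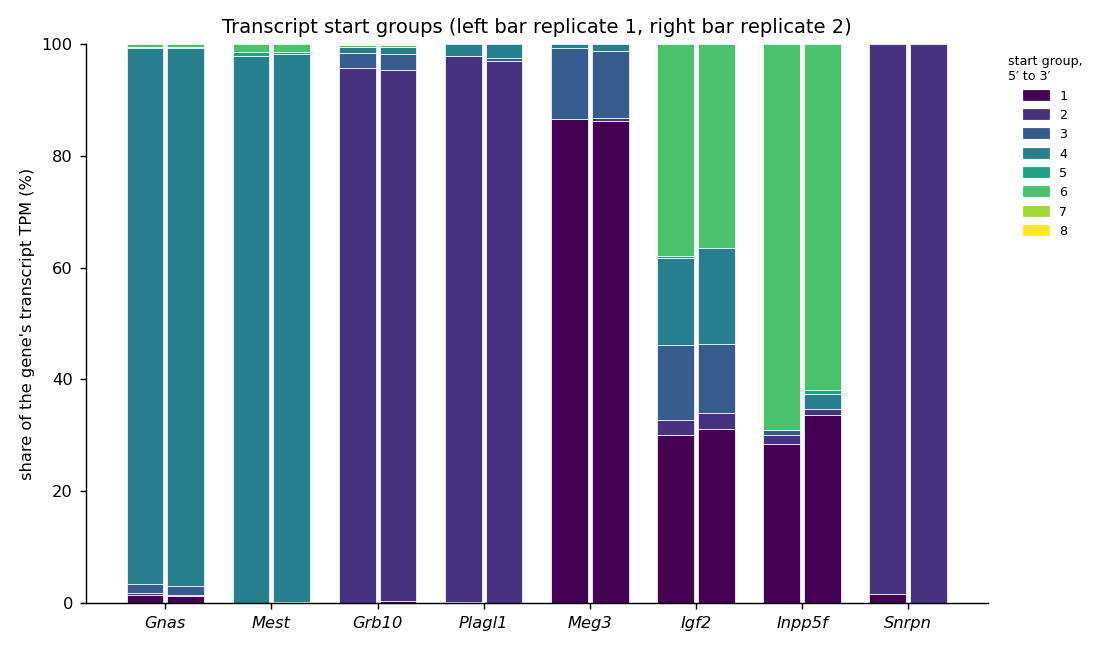
Stacked bars give the share of each gene's transcript TPM (%) by group of transcript starts, coloured in 5′ to 3′ order, with replicate 1 on the left and replicate 2 on the right of each pair. Gnas, Mest, Grb10, Plagl1 and Snrpn each have 1 group at 95% or more while Igf2 and Inpp5f are split over several.

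For Mest, 97.9% and 98.1% of the level was assigned to the start of its imprinted form, at position 30738050 to 30738055 of chromosome 6. The 2 transcripts from the farthest upstream start were at 0. Plagl1 drew 97.6% and 97.0% from 22 transcripts that start close together, Snrpn 98.4% and 100% from 1 start, Meg3 86.5% and 86.3% from its first start group, and Cdkn1c everything from 2 transcripts with nearby starts. Inpp5f stood apart from these. Its full-length start gave 28.4% and 33.6%, and a group of starts deep inside the gene, led by a 2609 nt transcript, gave 69.2% and 62.0% (14.5 and 13.7 TPM). The imprinted form of Inpp5f is known as a short variant from an internal start, and whether this transcript is that variant was not tested.

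Igf2 was divided among 6 start groups. Igf2-208, a transcript without a coding label that starts near the gene's 3′ end, took 37.9% and 36.5%, and the 650 nt Igf2-203 from the most upstream start took 30% and 31.1%. Short transcripts that share exons with longer ones make such shares a product of the authors' read assignment. Peg10 had 66.6% and 62.8% in 3 transcripts from its start and 33.4% and 37.2% in 1 transcript that the later GENCODE M21 does not hold. H13 ended 18.5% and 17.8% of its level upstream of Mcts2, where alternative ends set by the Mcts2 imprint are known. Of that, H13-206, labelled a retained intron, made 11.3% and 10.2%. The coding H13-203, which ends nearer to Mcts2, made 7.2% and 7.6%. Whether either is an end set by the imprint was not tested.

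Grb10 is shown with sequence because 2 of its starts differ in base composition as well as in assigned level. The upstream start gave 471 and 436 TPM (95.7% and 95%) and the start at position 12027971 of chromosome 11 gave 12.9 and 13.4 TPM (2.63% and 2.93%). The 150 bases before each RefSeq start (GRCm38.p6, minus strand, chr11:12037421-12037570 and chr11:12027972-12028121) are given 5′ to 3′ with CpG in capitals.
Grb10 upstream start: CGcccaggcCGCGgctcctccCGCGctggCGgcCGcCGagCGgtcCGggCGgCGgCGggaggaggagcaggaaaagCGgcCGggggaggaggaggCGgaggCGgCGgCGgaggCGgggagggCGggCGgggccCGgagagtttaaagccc
Grb10 downstream start: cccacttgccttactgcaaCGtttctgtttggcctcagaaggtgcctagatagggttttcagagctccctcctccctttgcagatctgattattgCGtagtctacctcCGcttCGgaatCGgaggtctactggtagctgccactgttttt
The upstream stretch holds 23 CpG at an observed over expected ratio of 1.02, and the downstream stretch 5 CpG at 0.53. The RefSeq upstream start, 12037420, is not the base 12037401 at which GENCODE M21 starts that transcript.

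Promoter windows of RefSeq, 250 bases before to 50 after a start, were found for 38 members (54 windows). Their median CpG number was 13.5, against 7 over all 32851 windows. The windows of maternally expressed members had a median of 20 CpG and 61.0% G and C, and those of paternally expressed members 10 CpG and 54.3%. Every window of a gene was counted, and all Gnas windows, also those at exon 1A, were counted as maternal. Of the members found, 12 maternally and 2 paternally expressed ones are of limited imprinting, so this contrast also follows scope. The letters TGCCGC, bound by ZFP57 when methylated, occurred on either strand in 12 of 54 windows (22.2%), against 11.6% of all windows. Overlapping Mest windows that begin at 30737800 and 30737803 are both in that count. The letters include a CpG, and the higher CpG number of member windows was not accounted for. They occurred in 0 places of the 3 stretches printed above, but the full window of the Grb10 upstream start holds them outside the printed bases. These are descriptions of sequence, and neither binding nor methylation was measured.

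Genes that set, keep or read imprints were nearly all present. Of 17 listed, 15 reached 1 TPM in both libraries, against 33.5% of all Ensembl genes and 59.2% of protein-coding genes. The highest were Trim28, the corepressor that ZFP57 recruits, at 442 and 422 TPM, Dnmt3a, a de novo methyltransferase, at 210.2 and 233 TPM, and Uhrf1, the partner of the maintenance methyltransferase, at 164 and 167 TPM. Zfp57 itself was at 107 and 105 TPM. The pair under the limit were Dnmt3l, the cofactor of methylation in germ cells, at 0 and 0.17 TPM, and Dppa3, which protects the egg's methylation, at 0 and 0.09 TPM. None of the 15 tested was called at 2-fold between the libraries by the exact binomial test described next, against 1.82% of all genes. At that share, a list of 15 without a call says little about these genes. Without a limit on fold, 2 were lower in replicate 2, against 8.49% of all genes, and 2 were higher, against 8%.

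All tested members but Ascl2 differed by less than 2-fold between the pools. An exact binomial test of rounded counts, two-sided and adjusted by Benjamini-Hochberg over 18580 genes, called 1 of 45 tested members at adjusted p under 0.05 and at least 2-fold, against 1.82% of all genes. That member was Ascl2, with 9 and 27 counts (log2 1.52, exact binomial adjusted p = 0.0284), whose adjusted p was 1 in edgeR's exact test. With no limit on fold, 13 members were lower in replicate 2, against 8.49% of all genes, and 5 were higher, against 8%. Members are deep, with a median of 3732 summed counts against 882 over all genes, and the binomial test sees smaller differences in deeper genes. edgeR's exact test, whose spread was estimated from the same 2 libraries that it compares, called no member at any fold and 136 genes in all, so a missing call there does not show that levels were equal.

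**Figure D4:**
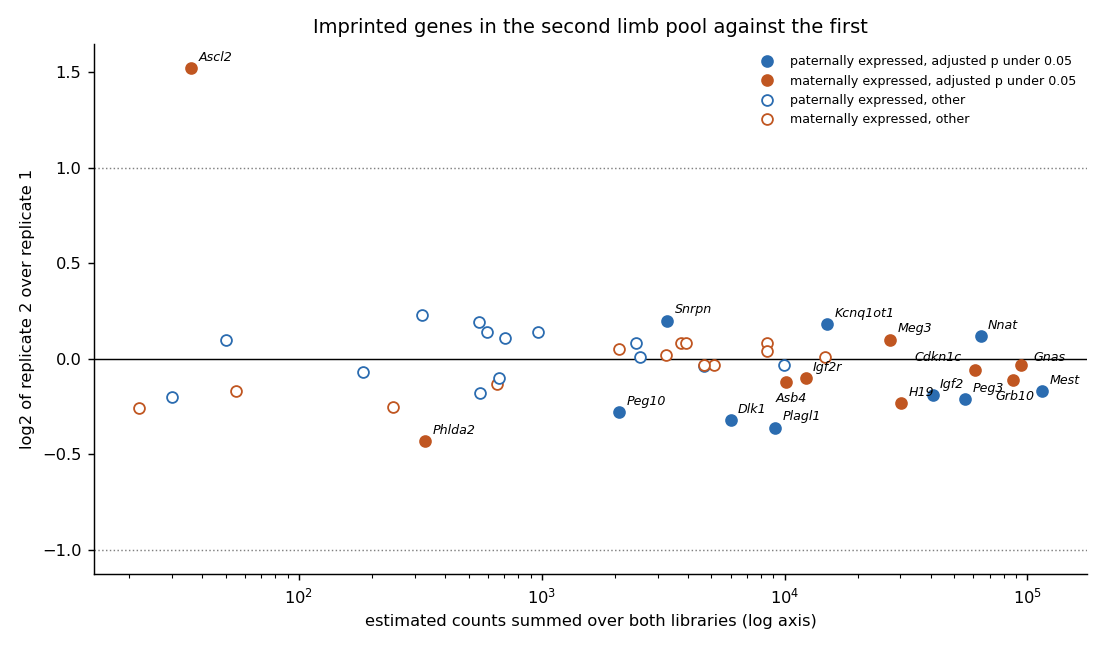
Log2 of replicate 2 over replicate 1 for each tested member against its estimated counts in both libraries (log axis), filled where the exact binomial adjusted p is under 0.05, coloured by parental copy, with dotted lines at a 2-fold difference. All members but Ascl2 lie between -0.43 and 0.23, and the median is -0.03.

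The lower group held both parental classes and genes of several domains. On the log2 scale Phlda2 was at -0.43, Plagl1 at -0.36, Dlk1 at -0.32, Peg10 at -0.28, H19 at -0.23, Peg3 at -0.21, Igf2 at -0.19 and Mest at -0.17, and Asb4, Grb10, Igf2r, Cdkn1c and Gnas were between -0.12 and -0.03. Higher in replicate 2 were Snrpn (0.20), Kcnq1ot1 (0.18), Nnat (0.12) and Meg3 (0.10), besides Ascl2. Within the Dlk1-Dio3 domain, Dlk1 and Meg3 therefore differed in opposite directions, and the log2 ratio of Dlk1 over Meg3 was -1.83 in replicate 1 and -2.23 in replicate 2.

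Other markers differed between the same pools. Cartilage markers summed to 866 TPM in replicate 1 and 750.1 in replicate 2. Their log2 of replicate 2 over replicate 1 had a median of -0.29, from -1.31 for Matn1 to -0.01 for Sox9. Neuron markers summed to 20.0 and 30.1 TPM, with a median log2 of 0.70 over 8 tested, though Snap25 was lower at -0.50. Median log2 was 0.08 for limb markers, -0.06 for muscle markers and -0.09 for endothelium markers. Liver markers were low, with summed TPM of 8.21 and 5.41, and had a median log2 of -0.70 over 4 tested. Tbx5, the forelimb regulator, was at 35.2 and 24.1 TPM, and Pitx1 and Tbx4, of the hindlimb, were at 142 and 173 TPM and at 32.3 and 37.1 TPM. Their part in the differences between members was not tested.

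Some values depend on how reads of overlapping genes were assigned, and no source used here gives the strand setting. Exons of Nespas overlap those of Gnas over 31.4% of its exonic bases, exons of Copg2 those of Mest over 17.8%, and exons of Zrsr1 those of Commd1 over 9.17%, each on opposite strands. Nnat and Blcap, Airn and Igf2r, and Mcts2 and H13 overlap in span but share no exonic base. The Copg2 and Zrsr1 levels, far below their partners, could thus hold partner reads if strand was not used, which was not tested. The same holds for Nespas, at 10.4 and 11.3 TPM. Among the Gnas start groups its span reaches only that of Nesp, at 22.1 and 17.9 TPM. Other members share sequence with opposite-strand transcripts of GENCODE M21 too. Words of 31 bases found in reverse complement in other genes made up 27.2% for Cdkn1c, 26.4% for Ube3a and 22% for Mest. For Gnas they made up 19.9% and for Usp29, with its few counts, 15.5%. Their effect on these levels was not tested.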

How the data were processed

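Total RNA-seq tables of 2 limb pools were used. Build mm10 and GENCODE M4 are named in the text files deposited with each sample; no source used here names the aligner, quantifier, versions or strand setting. Per the file headers, the deposited columns are expected counts (estimated reads of a gene or transcript, not always whole), TPM (scaled by effective length to a fixed sum, spike-ins included, which held 3.28% and 2.3% of all counts), FPKM (scaled by length and depth) and a percent share of each transcript in its gene. FPKM served only as an alternative for detection.

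All 46 members found are named. Symbols came from GENCODE M21. Detection meant 1 TPM in both libraries; log2 ratios used TPM + 0.1; starts within 1000 nt formed a group. Expected counts were rounded and tested per gene with an exact conditional binomial test on TMM-scaled library sizes (edgeR 4.0.16, R 4.3.3), for genes with 10 or more summed counts, which measures counting error only; edgeR's exact test (trended dispersion from the same 2 libraries) and DESeq2 1.42.0 size factors were alternatives. On simulated data with counting error only and equal library sizes (18599 genes tested), 100 of 100 genes changed 4-fold and 55 of 100 changed 2-fold were called. The changed genes had more counts than Ascl2. The real pools spread more widely: squared deviations over all tested genes averaged 6.23 times those of counting error. The simulation therefore does not show how the test performs on these pools. edgeR's quasi-likelihood test was not run, since 1 library against 1 leaves no residual degrees of freedom. The members and lists were chosen with earlier results of these data known. Sequences came from RefSeq (GRCm38.p6) and GENCODE M21.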

Additional observations from a re-analysis of the deposited data

How the results depend on the processing

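The paternal minus maternal median log2 level of -0.96 was -0.96 with a pseudocount of 0.01 (differing past the second decimal), -0.93 with a pseudocount of 1, -0.93 for counts scaled by depth but not by length, -0.91 with the posterior mean TPM, -1.12 over members of broad imprinting and -1 over members of at least 1 TPM on average. Members detected, 41 at 1 TPM, were 42 at 0.5 TPM, 35 at 5 TPM and 38 at 1 FPKM. Members differing between libraries went from 1 to 0 with a minimum of 100 summed counts, where Ascl2 is no longer tested, to 18 without a limit on fold, and to 0 with edgeR's exact test. Without length scaling the ratio of Snrpn over Ube3a reversed to -1.36, and 24 other pair ratios moved by more than their spread between libraries. Leaving out either library kept the direction of all 28 pairs, which with 2 libraries only restates that both had the same direction. For Snrpn over Ube3a the log2 ratio without replicate 2 was 0.00. No paired analysis was possible because there is only 1 group. With 16 and 14 counts for Usp29 and fewer for Slc22a3 and Slc22a2, depth limits what can be said of the lowest members.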

Other observations

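Of 37 further imprinted genes or direct neighbours of the domains, 35 were found and 27 reached 1 TPM in both libraries, against 33.5% of all Ensembl genes. Their median level was 6.06 TPM, against 34.3 TPM for the members. The highest were neighbours known to be read from both copies in most tissues: Commd1, the host of Zrsr1 and a regulator of protein turnover, at 315 and 327 TPM, Nap1l4, a histone chaperone beside Phlda2, at 237 and 244 TPM, and Chrac1, a histone-fold subunit near Trappc9, at 59.9 and 64.3 TPM. Ins2, the insulin gene beside Igf2, and Kcnk9, a potassium channel gene in the domain of Trappc9, had 0 counts in both libraries.

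Th, tyrosine hydroxylase, lies between Ins2 and Ascl2 on chromosome 7. Of 33 genes of that list that were tested, only Th was called between the pools, against 1.82% of all genes. It was at 0.34 and 1.11 TPM from 11 and 33 counts (log2 1.53, exact binomial adjusted p = 0.0118; edgeR's exact test gave an adjusted p of 0.935). Ascl2 had 9 and 27 counts in the same libraries.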
